A study of Solanum lycopersicum with 14 samples.

Results

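Genes that build and remodel the cell wall were followed through the growth and ripening of tomato fruit. Members were taken by symbol, which in the deposited tables is that of the closest Arabidopsis gene, from the families CESA, CSL, IRX, GAUT and GATL, PME, expansins (EXP, EXLA and EXLB), XTH (with its older name XTR), GH9 and FLA. The symbols took in 167 of 26397 listed genes. The rule sets aside 6 loci by name, 4 of which carry such symbols. Another 31 genes that never reached 10 reads in a library were left out, which gave 132 members in 9 families. Counts and sums of a family cover these members only, and not the loci set aside. Just inside that minimum lay FLA11 Solyc06g075220.1, with 10 reads in its highest library, and just outside it lay CSLG1 Solyc00g030000.1, with 9.

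Fruits of Solanum lycopersicum were compared between AC (Ailsa Craig, an early cultivar) and HG6-61, a late-maturing line, grown without any treatment in a shared greenhouse. Flowers were tagged when open, and fruits were taken from 5 plants of each genotype every 7 days, from 7 to 49 days after flowering (DAF). Each cultivar and age gave 1 RNA-seq library, 14 in all, so that no age has a replicate within a cultivar and the paired libraries of an age are those of both genotypes. The stage label calls all fruits from 7 to 35 DAF mature green in both cultivars, those of 42 DAF breaker and those of 49 DAF ripening.

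The wall of a growing fruit cell is a network of cellulose microfibrils tied by hemicelluloses such as xyloglucan and mannan and set in a gel of pectin. CESA proteins at the plasma membrane spin cellulose. Many, though not all, of the CSL, IRX, GAUT and GATL proteins work in the Golgi on the backbones of xyloglucan, mannan, xylan and pectin. Outside the cell, PME enzymes take methyl groups off pectin, expansins loosen the contacts between polymers without cutting them, XTH enzymes cut and rejoin xyloglucan, and GH9 enzymes cut glucan chains. FLA proteins are anchored arabinogalactan proteins of the cell surface. In fleshy fruit the same families serve the fast expansion of young pericarp and, with polygalacturonase and other enzymes that are not described here, the softening at ripening.

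Libraries held 1461817 to 6274456 counted reads. Members took 0.558% to 1.27% of the reads in AC and 0.491% to 1.499% in HG6-61, highest at 7 DAF in both cultivars. The 95% Wilson interval of the share in AC at 7 DAF, which covers counting error only, was 1.26% to 1.29%. Ripening genes placed the cultivars at different points of the same calendar: E8, an ethylene-responsive ripening gene, stood at 3769.7 RPKM (reads scaled to gene length and to the mapped reads of the library, as deposited) in AC at 35 DAF and at 152 RPKM in HG6-61 of that age, where it stood at 1799 RPKM at 42 DAF. The summed level of 7 seed genes went from 102 RPKM at 14 DAF to 3123 and 3768 RPKM at 21 and 28 DAF in AC, and from 12.5 to 604 and 1535 RPKM in HG6-61, although the study describes pericarp. The sum of the 13 xylem genes found went from 47.0 RPKM at 7 DAF to 0.62 RPKM at 49 DAF in AC and from 35.7 to 6.77 RPKM in HG6-61. Most of it was 1 gene, XCP1 Solyc04g082710.2, at 36.6 and 25.9 RPKM at 7 DAF, and no other xylem gene passed 2.65 RPKM in any library. No phloem marker of the list matched a symbol. The 18 epidermis genes found summed to 666 RPKM at 7 DAF and 281 RPKM at 14 DAF in AC and to 630 and 298 RPKM in HG6-61, and were at 513 and 702 RPKM at 49 DAF. These genes did not move together. Between 7 and 14 DAF PDF1 Solyc12g011010.1 went from 159 to 9.06 RPKM in AC and from 171 to 17.2 RPKM in HG6-61. FDH Solyc02g086880.2 went from 188 to 146 RPKM and from 141 to 131 RPKM, and CER1 Solyc08g044260.2 rose from 2.61 to 8.54 RPKM and from 2.60 to 6.22 RPKM. Of the sums at 49 DAF, CER1 Solyc01g088400.2 made up 155 and 373 RPKM, from 0.79 and 2.74 RPKM at 28 DAF. The part of xylem and epidermis cells in the early falls was not tested. In libraries of whole tissue, fewer cells of a type and less RNA per cell cannot be told apart. TMM scaling, which the tests use and RPKM does not, had log2 factors from -0.28 (AC, 35 DAF) to 0.14 (AC, 7 DAF). Levels are divided by the factor, so that it would raise all levels of the former library and lower those of the latter.

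Members called lower outnumbered those called higher between the youngest and the oldest fruit, while XTH had 11 called higher and 5 lower. GAUT and GATL had 3 calls in 14 members tested, 2 higher and 1 lower, a share near the 22.6% of all genes. Between 7 and 49 DAF 61 of the 120 members that could be tested were called (50.8%), 18 higher and 43 lower, where 22.6% of all 18082 genes tested were called, 8.83% of them higher and 13.8% lower. Between 7 and 28 DAF 29 members were called (24.2%), 14 higher and 15 lower, against 9.84% of all genes, 5.08% higher and 4.76% lower. Between 28 and 49 DAF 14 were called (11.7%), 3 higher and 11 lower, against 3.93% of all genes, 0.874% higher and 3.06% lower. In a test of any difference among the 7 ages 73 members passed (60.8%), where 32.9% of all genes did. A call was an adjusted p under 0.01 (edgeR quasi-likelihood, Benjamini-Hochberg over all genes) with a log2 fold change beyond 2, the any-age test having no limit on the fold. The other 12 members had too few reads to be tested. These tests treat both cultivars as the pair of replicates of an age, with cultivar as a term, and 1 library decides many of the calls: all 14 fits that each left out 1 library kept 35 of the 61 calls at 49 against 7 DAF, 10 of the 29 at 28 against 7 DAF and 1 of the 14 at 49 against 28 DAF. Without 1 library the 29 calls ranged from 11 (without HG6-61 at 7 DAF) to 36, and 12 were left without AC at 7 DAF, 15 without AC at 28 DAF and 16 without HG6-61 at 28 DAF. The 61 calls ranged from 38 (without AC at 7 DAF) to 63. The 14 calls fell to 1 without AC at 49 DAF, 3 without HG6-61 at 28 DAF, 8 without HG6-61 at 49 DAF and 9 without AC at 28 DAF, and reached 22 without either library of 35 DAF in turn.

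**Figure D1:**
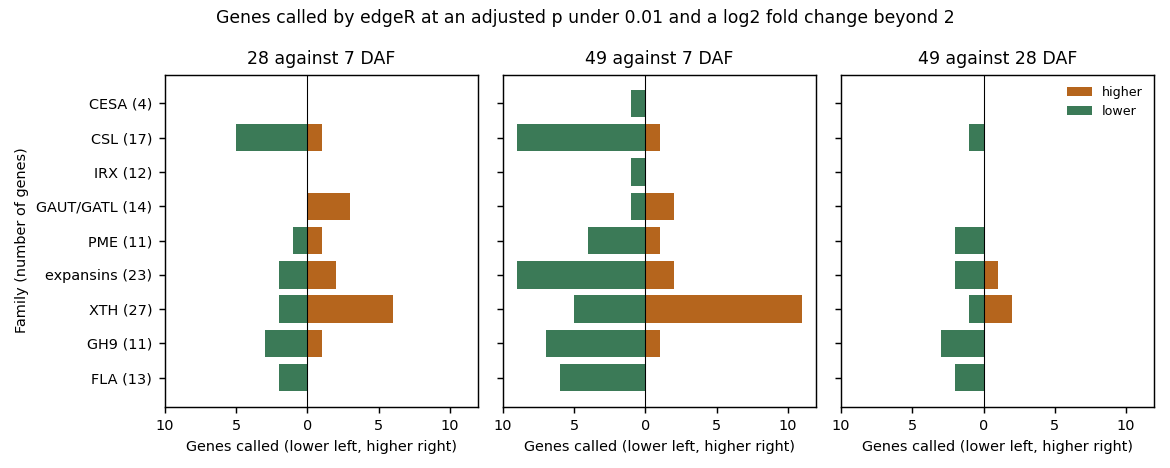
Number of members called higher (above 0) and lower (below 0) in each of the 9 families, for 28 against 7, 49 against 7 and 49 against 28 DAF. At 49 against 7 DAF the bars reach 11 higher and 5 lower in XTH, and 9 lower in the expansins and in the cellulose synthase-like genes.

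The age of the highest level tells the same samples in another way. In both cultivars 65 of 132 members (49.2%) were highest at 7 or 14 DAF, compared with 30.9% of the 19923 genes of at least 10 reads, and 20 (15.2%) were highest between 35 and 49 DAF, compared with 24.9%. Of the glucanases, 9 of 11 GH9 members were highest at 7 or 14 DAF in both cultivars, and so were 11 of 17 CSL, 8 of 13 FLA and 3 of 4 CESA members. XTH was split, with 10 of 27 early and 8 of 27 late. For 70 members (53.0%, all genes 44.1%) the highest library was of the same age in AC and HG6-61.

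**Figure D2:**
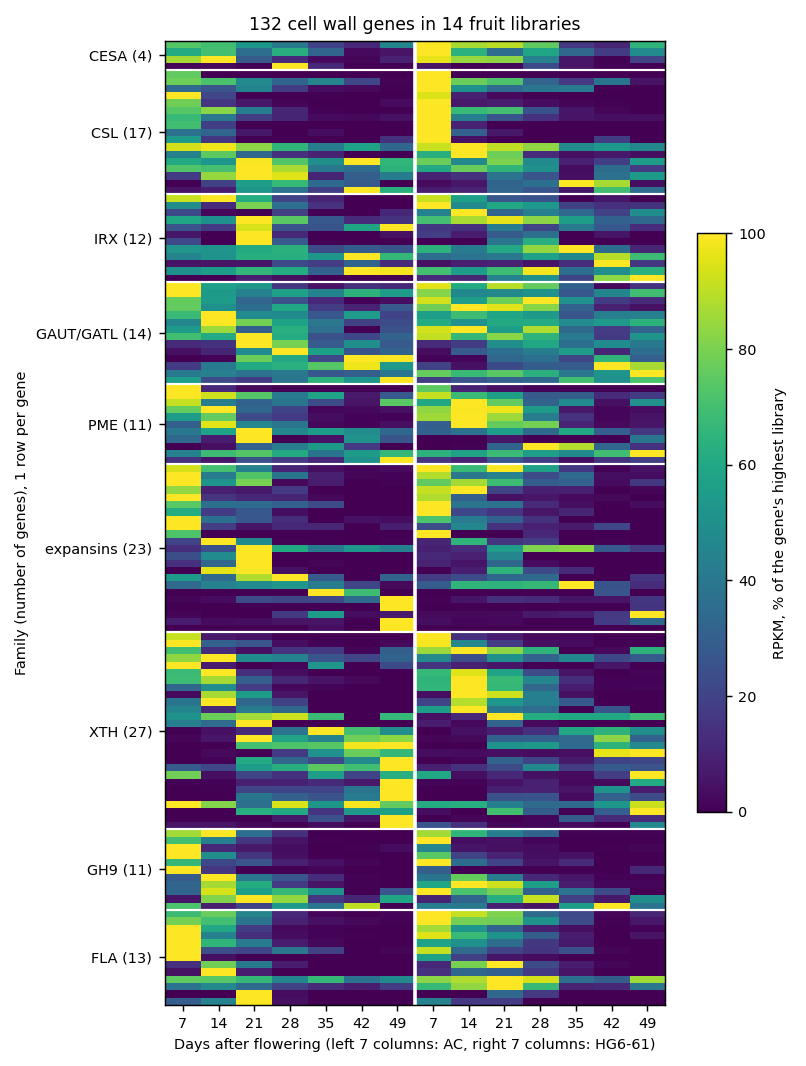
RPKM of the 132 members (rows, grouped by family) in the 14 libraries (columns, AC left and HG6-61 right, 7 to 49 DAF), each row drawn as a percent of that gene's highest library. Bright cells gather at 7 and 14 DAF in GH9, CSL and FLA, and XTH holds both early and late rows.

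The summed level of the cellulose synthases was high in young fruit and lowest at 42 DAF. All 4 carry the symbol CESA2, a primary-wall isoform in Arabidopsis, and no member carries a CESA or IRX symbol of the secondary-wall isoforms. MUR10 Solyc07g005840.2, whose symbol is another name of a secondary-wall isoform, was not taken in by the rule. Its log2 fold change at 49 against 7 DAF was -4.10, which was not called (adjusted p = 0.0142, edgeR). Solyc04g071650.2 on chromosome 4 had the highest mean level of the family. In AC its RPKM from 7 to 49 DAF was 135, 156, 44.3, 18.8, 4.29, 2.71 and 14.6, and in HG6-61 it was 151, 131, 129, 68.1, 9.29, 0.94 and 29.9. At 21 DAF the level in HG6-61 was still that of 14 DAF while that in AC was not, and in both cultivars it was higher at 49 than at 42 DAF. The gene fell between 7 and 49 DAF, by 2.51 ± 0.61 on the log2 scale (SE, adjusted p = 0.0064, edgeR), the only call among the 4, while 3 of the 4 passed the any-age test. That call was lost without any 1 of the libraries of 7 or 49 DAF (adjusted p from 0.0174 to 0.0554, edgeR). Solyc12g056580.1 ran beside it at 40.8, 38.6, 29.5, 22.5, 11.1, 6.39 and 25.0 RPKM in AC and at 55.5, 48.2, 49.7, 42.0, 9.19, 6.07 and 36.1 RPKM in HG6-61. The summed RPKM of the family was 9.25 in AC and 8.23 in HG6-61 at 42 DAF and 39.8 and 69.0 at 49 DAF. Its median log2 fold change at 49 against 7 DAF was -2.02, where the median of all genes tested was -0.18.

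A single cellulose synthase-like gene carried most of that family at 7 DAF. CSL proteins include the CSLA mannan synthases and the CSLC synthases of the xyloglucan backbone, while CSLG is a plant clade of less settled function, one member of which, in spinach, attaches glucuronic acid to saponins and not to a wall polymer. CSLG2 Solyc07g043390.2 on chromosome 7 read 2172, 11.1, 12.3, 6.5, 0.46, 1.04 and 0.36 RPKM in AC. HG6-61 gave 2870.3, 15.8, 8.61, 14.9, 1.56, 0.46 and 1.64 RPKM. The libraries of 7 DAF stood apart from the other 12 without overlap, and at 7 DAF this gene made up 86.1% of the summed family RPKM in AC and 86.5% in HG6-61. It fell by 7.92 ± 0.60 on the log2 scale between 7 and 28 DAF (adjusted p = 3.84e-05, edgeR) and by 11.11 ± 0.72 between 7 and 49 DAF (adjusted p = 8.05e-06, edgeR). A further fall of 3.20 ± 0.60 between 28 and 49 DAF (adjusted p = 0.00722, edgeR) was lost without any 1 of 8 libraries, with adjusted p up to 0.0592.

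The run of 4 neighbouring CSLG genes on chromosome 8, Solyc08g082640.2 to Solyc08g082670.2, was highest at 7 DAF in both cultivars. Its strongest gene, CSLG2 Solyc08g082650.2, read 44.0, 9.43, 0, 0, 0.30, 0 and 0 RPKM in AC and 41.7, 4.03, 1.15, 0.34, 0, 0 and 0 RPKM in HG6-61. Both libraries of 49 DAF had no read, which, with 3 reads as the limit that a count of 0 allows in a library, put the level at least 29.7-fold lower than at 7 DAF in AC and at least 22.1-fold lower in HG6-61 (adjusted p = 0.00104, edgeR). Between 7 and 28 DAF the adjusted p was 0.00167 and rose to 0.0175, 0.0201 and 0.0215 without AC at 7 DAF, AC at 28 DAF and HG6-61 at 7 DAF. CSLG3 Solyc08g082660.2 was at 7.26 and 10.4 RPKM at 7 DAF and at 0 in all libraries from 35 DAF on, and the last pair of the run stayed under 3 RPKM. Reads that matched several places were removed before counting, so that near-identical neighbours may be under-counted.

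Among the hemicellulose synthases, 1 CSLC gene rose while another CSLC gene and both CSLA2 genes fell between 7 and 49 DAF. CSLC4 Solyc02g089640.2, for which the Arabidopsis protein makes the glucan backbone of xyloglucan, was the only CSL member called higher. Its levels in AC were 14.5, 21.4, 143, 104, 51.1, 277 and 176 RPKM, and in HG6-61 22.2, 28.0, 90.8, 73.6, 17.6, 193 and 98.6 RPKM. It rose by 2.21 ± 0.49 on the log2 scale between 7 and 28 DAF (adjusted p = 0.00717, edgeR) and by 3.06 ± 0.51 between 7 and 49 DAF (adjusted p = 0.000738, edgeR). The first call was lost without any 1 of the libraries of 7, 21 or 28 DAF or HG6-61 at 42 DAF (adjusted p from 0.0111 to 0.089, edgeR), and the second without AC at 7 DAF (0.012). CSLA2 Solyc11g066820.1, named for a mannan synthase, fell by 4.72 ± 0.71 between 7 and 49 DAF (adjusted p = 0.000443, edgeR), from 155 to 1.78 RPKM in AC and from 199 to 10.8 RPKM in HG6-61. CSLC5 Solyc08g006310.2 was at 8.44 and 11.4 RPKM at 7 DAF and at 0 at 49 DAF in both cultivars (adjusted p = 0.000238, edgeR). CSLC6 Solyc09g057640.2 stayed between 7.94 and 23.6 RPKM over the 14 libraries, with a log2 fold change of -0.95 ± 0.26 at 49 against 7 DAF that was not called. These 4 were chosen after their values were seen. In all, 1 of the 17 CSL members was called higher and 9 lower at 49 against 7 DAF, and 1 and 5 at 28 against 7 DAF, with a median log2 fold change of -4.64 over the 15 tested at 49 against 7 DAF.

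Of the 12 IRX members 9 could be tested, and 1 was called at 49 against 7 DAF, where 22.6% of all genes were. The any-age test passed for 2, where 32.9% of all genes passed. Few calls do not show steady levels, since 3 members were at least 2-fold higher at 21 than at 14 DAF in both cultivars. The name comes from Arabidopsis mutants with collapsed xylem, and it joins unlike proteins: IRX7, IRX9 and IRX14 work on xylan, IRX6 is a COBRA-like protein of cellulose deposition, and IRX4 is cinnamoyl-CoA reductase, an enzyme of lignin synthesis. No member was called higher in any comparison of ages, and 1 of 12, IRX4 Solyc03g116910.2, was called lower at 49 against 7 DAF, with at most 4.77 RPKM in any library, a call lost without any 1 of 7 libraries (adjusted p from 0.0103 to 0.0376, edgeR). IRX14-L Solyc11g011850.1 on chromosome 11 had the highest mean level. It read 55.7, 63.6, 78.3, 78.8, 65.9, 125 and 83.2 RPKM in AC and 45.3, 47.5, 50.0, 71.6, 58.1, 111 and 85.7 RPKM in HG6-61, with 42 DAF highest in both. Over all 14 libraries its highest level was 2.76 times its lowest. The any-age test passed (adjusted p = 0.00278, edgeR), though not without AC at 7 DAF or HG6-61 at 7 or 42 DAF, and the log2 fold change of 1.03 ± 0.24 at 49 against 7 DAF (adjusted p = 0.00555, edgeR) was below the limit on the fold. The other IRX4 gene, Solyc06g068440.2, reached 85.3 RPKM in AC and 264 RPKM in HG6-61 at 42 DAF, from 14.3 and 12.2 RPKM at 7 DAF, and passed the any-age test (adjusted p = 0.00273, edgeR), though not without HG6-61 at 42 DAF (0.0407). For the family as a whole the median log2 fold change at 49 against 7 DAF was 0.70 over the 9 members tested and -0.06 over the 11 members with a ratio when counts of 0 were set to 3 reads.

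Of the pectin synthesis genes, GATL10 and a pair of GAUT genes rose between 7 and 28 DAF, while the other 11 were not called over that span. GAUT proteins are galacturonosyltransferases that extend homogalacturonan, and GATL proteins are their shorter relatives. GATL10 Solyc02g087350.1 on chromosome 2 read 0.47, 1.71, 154, 120.0, 43.4, 199 and 198 RPKM in AC. In HG6-61 it read 1.95, 2.83, 65.5, 72.3, 41.2, 130.1 and 59.8 RPKM. All 10 libraries from 21 DAF on were above all 4 of 7 and 14 DAF. It rose by 5.92 ± 0.67 on the log2 scale between 7 and 28 DAF (adjusted p = 0.000222, edgeR) and by 6.498 ± 0.682 between 7 and 49 DAF (adjusted p = 6.27e-05, edgeR). GAUT13 Solyc02g088630.2 and GAUT15 Solyc07g055930.2 rose too between 7 and 28 DAF, by 2.57 ± 0.37 and 4.16 ± 0.64 (adjusted p = 0.00081 and 0.00113, edgeR), and both calls were lost without either library of 7 DAF (0.0118 to 0.0188). GATL7 Solyc09g075560.1 was the 1 of 14 called lower at 49 against 7 DAF, with 19.3 RPKM at 7 DAF and 0.95 RPKM at 49 DAF in AC and 23.6 and 3.10 RPKM in HG6-61, a call that was lost without AC at 7 DAF, AC at 49 DAF or HG6-61 at 49 DAF (0.0379, 0.0331 and 0.0384). GAUT4 Solyc04g015270.2 stayed between 15.2 and 75.1 RPKM, and GAUT6 Solyc07g005360.2 between 6.92 and 25.1 RPKM. In total 3 of the 14 were called higher and none lower at 28 against 7 DAF, an age at which the seed markers summed to 3768 and 1535 RPKM (their part was not tested), and 2 higher and 1 lower at 49 against 7 DAF. None was called at 49 against 28 DAF, where the family had a median log2 fold change of -0.43.

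Pectin methylesterase levels passed from one gene to another as fruits matured. In growing fruit PME3 Solyc03g123630.2 on chromosome 3 dominated, and from 21 to 42 DAF PMEPCRA Solyc07g064170.2 on chromosome 7 did. PMEPCRA read 2.16, 123, 969, 1317, 1693, 514 and 4.94 RPKM in AC and 0.75, 31.2, 1006, 3115, 2759, 1032 and 448 RPKM in HG6-61. At its highest it held 94.7% of the summed RPKM of the family. It rose by 10.63 ± 1.87 on the log2 scale between 7 and 28 DAF (adjusted p = 0.00228, edgeR) and was called higher at 49 than at 7 DAF too (7.30 ± 1.72, adjusted p = 0.00557, edgeR), although the cultivars differed widely at 49 DAF, AC being 2.35-fold and HG6-61 608-fold above their own 7 DAF. Both calls were lost without either library of 7 DAF (adjusted p from 0.0218 to 0.0623, edgeR), and the second also without HG6-61 at 49 DAF (0.0862).

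PME3 read 655, 858, 282, 177, 15.9, 19.7 and 39.2 RPKM in AC and 717, 851, 837, 471, 59.6, 13.0 and 27.1 RPKM in HG6-61. Its decline came later in HG6-61, which at 21 DAF was still at the level of 14 DAF. It fell by 4.01 ± 0.68 on the log2 scale between 7 and 49 DAF (adjusted p = 0.000856, edgeR). PME44 Solyc07g017600.2 and PMEPCRF Solyc03g083360.2 fell both between 7 and 49 DAF (by 4.52 ± 0.49 and 2.36 ± 0.47, adjusted p = 6.86e-05 and 0.00215, edgeR) and between 28 and 49 DAF (by 3.19 ± 0.47 and 3.29 ± 0.47, adjusted p = 0.00262 and 0.0024, edgeR). The calls from 28 DAF were lost without AC at 49 DAF or HG6-61 at 28 DAF for both genes (0.0139 to 0.0255) and without HG6-61 at 49 DAF for PMEPCRF (0.0157), whose call from 7 DAF was lost without AC at 7 DAF, AC at 49 DAF or HG6-61 at 49 DAF (0.0152 to 0.0229). PME1 Solyc03g123620.2, the neighbour of PME3, was at 19.3 and 20.8 RPKM at 7 DAF and at 133 and 25.3 RPKM at 49 DAF, which was not called (adjusted p = 0.0378, edgeR). PME31 Solyc00g027770.2 was the steadiest of all members, its highest library (50.9 RPKM) being 2.57 times its lowest. These 5 were chosen after their values were seen.

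The symbol also draws in proteins that do not act on pectin. PMEAMT is phosphoethanolamine methyltransferase, an enzyme on the way to phosphatidylcholine, and PMEAMT Solyc12g040790.1 on chromosome 12 was among the deepest falls. It read 71.8, 8.14, 1.80, 0, 0, 0 and 0 RPKM in AC and 54.1, 6.77, 3.20, 0.65, 0, 0 and 0 RPKM in HG6-61. At 49 DAF it was at least 99.7-fold lower than at 7 DAF in AC and at least 59.2-fold lower in HG6-61 (adjusted p = 0.000293, edgeR), and the fall to 28 DAF was called as well (adjusted p = 0.00068, edgeR). PMEI2 Solyc03g112170.1, which encodes an inhibitor of PME, never passed 17.9 RPKM. Of the 11 genes, 1 was called higher and 4 lower at 49 against 7 DAF, 1 and 1 at 28 against 7 DAF, and none higher and 2 lower at 49 against 28 DAF.

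**Figure D3:**
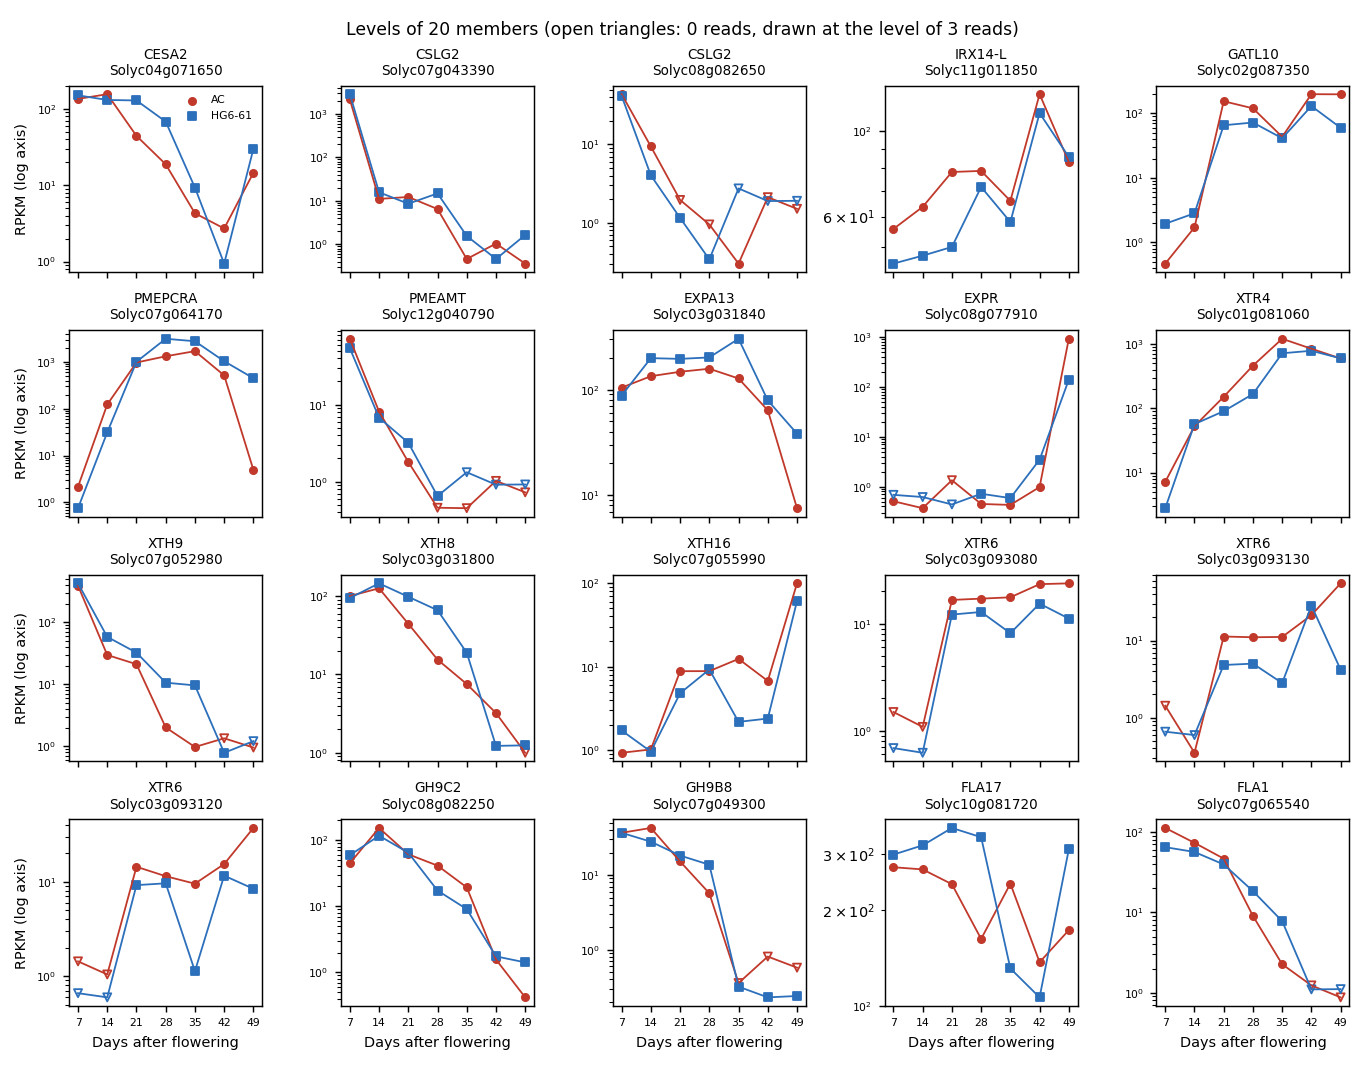
RPKM (log axis) of 20 named members by age in DAF, AC and HG6-61 as separate lines, with open triangles where a library had no read, drawn at the level of 3 reads. PMEPCRA climbs to 1693 and 3115 RPKM and EXPR stays under 4 RPKM before it reaches 920.2 and 139 RPKM at 49 DAF.

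Of the expansins, 9 of 23 fell between 7 and 49 DAF, and EXPR, almost without reads before, was the leading one at 49 DAF. Alpha-expansins (EXPA) are the classic wall-loosening proteins, EXPB members form the beta class, and EXPR and EXPL are expansin-like proteins for which loosening has not been settled. EXPA13 Solyc03g031840.2 on chromosome 3 had the highest mean level of the EXPA genes and of the family. Levels in AC were 104, 134, 148, 158, 127, 63.7 and 7.53 RPKM, and those in HG6-61 were 87.9, 199, 195, 202, 303, 79.1 and 38.2 RPKM. AC was thus highest at 28 DAF, HG6-61 was highest at 35 DAF, and both were lowest at 49 DAF. It fell by 2.94 ± 0.49 on the log2 scale between 28 and 49 DAF (adjusted p = 0.00425, edgeR) and by 2.04 ± 0.48 between 7 and 49 DAF (adjusted p = 0.00536, edgeR). The first call was lost without AC at 28 or 49 DAF or HG6-61 at 28 DAF (adjusted p up to 0.0253), and the second without AC at 7 or 49 DAF (0.0497 and 0.0464), or by the limit on the fold without AC at 35 or 42 DAF (-1.90 and -1.96).

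EXPR Solyc08g077910.2 on chromosome 8 had the largest fitted rise of the members tested at 49 against 7 DAF. AC had 0.51, 0.37, 0, 0.45, 0.43, 0.98 and 920.2 RPKM, and HG6-61 had 0, 0, 0, 0.72, 0.59, 3.47 and 139 RPKM. Both libraries of 49 DAF lay far above the other 12, none of which passed 4 RPKM. It rose by 11.16 ± 1.12 on the log2 scale between 7 and 49 DAF (adjusted p = 6.99e-05, edgeR) and by 9.68 ± 0.99 between 28 and 49 DAF (adjusted p = 0.00104, edgeR). This was the single call at 49 against 28 DAF that held in each of the 14 fits without 1 library. At 49 DAF it made up 60.8% of the summed expansin RPKM in AC and 42.6% in HG6-61. Its neighbour EXPR Solyc08g077900.2 reached 4.62 RPKM at most, at 35 DAF in AC.

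Other expansins moved in 3 ways. EXPL1 Solyc01g112000.2 rose by 5.50 ± 0.90 between 7 and 49 DAF (adjusted p = 0.00068, edgeR), from 5.97 to 496 RPKM in AC and from 5.62 to 78.7 RPKM in HG6-61, though not without AC at 7 DAF (0.0126). EXPA10 Solyc02g088100.2, EXPA6 Solyc06g076220.2 and EXPA4 Solyc06g005560.2 fell. EXPA10 went from 298 to 9.47 RPKM in AC and from 319 to 15.2 RPKM in HG6-61 between 7 and 49 DAF (log2 fold change -4.44 ± 0.68, adjusted p = 0.000487, edgeR). EXPB2 Solyc07g049540.1 was highest at 21 DAF, with 46.9 and 21.6 RPKM, and had no read from 28 DAF on in either cultivar. Of the 23 expansins 2 were called higher and 9 lower at 49 against 7 DAF, 2 and 2 at 28 against 7 DAF, and 1 and 2 at 49 against 28 DAF. The median log2 fold change at 49 against 7 DAF was -4.44 over the 19 tested and -2.25 over the 21 with a ratio when counts of 0 were set to 3 reads.

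In the XTH family a set of young-fruit genes fell, while XTR4 rose and led the summed level from 28 DAF on in both cultivars. XTR6 and XTR7 genes rose from 14 to 21 DAF, though XTR7 Solyc12g011030.1 was high at 7 DAF as well. XTR4 Solyc01g081060.2 on chromosome 1 read 7.18, 52.8, 151, 463, 1213, 849 and 599 RPKM in AC. In HG6-61 the levels were 2.79, 56.8, 90.5, 167, 721, 789 and 600.4 RPKM. Each library from 35 DAF on was above all libraries of 7 to 28 DAF, with 35 DAF highest in AC and 42 DAF in HG6-61. It rose by 6.03 ± 0.52 on the log2 scale between 7 and 28 DAF (adjusted p = 6.07e-05, edgeR) and by 7.33 ± 0.55 between 7 and 49 DAF (adjusted p = 1.48e-05, edgeR), 85.4-fold in AC and 218-fold in HG6-61 by reads per library total. At its highest share it was 79.6% of the summed XTH level.

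A run of 4 XTR6 genes on chromosome 3, Solyc03g093080.2 to Solyc03g093130.2, was nearly silent at 7 and 14 DAF and present from 21 DAF on. XTR6 Solyc03g093080.2 read 0, 0, 16.6, 17.1, 17.6, 23.4 and 23.8 RPKM in AC and 0, 0, 12.2, 12.8, 8.14, 15.4 and 11.2 RPKM in HG6-61. XTR6 Solyc03g093120.2 read 0, 0, 14.4, 11.4, 9.53, 15.4 and 37.1 RPKM in AC and 0, 0, 9.20, 9.62, 1.13, 11.6 and 8.42 RPKM in HG6-61. XTR6 Solyc03g093130.2 read 0, 0.35, 11.3, 11.04, 11.1, 21.4 and 55.2 RPKM in AC and 0, 0, 4.82, 5.02, 2.81, 28.4 and 4.19 RPKM in HG6-61. No library of 7 or 14 DAF overlapped a later one for these 3 genes, and the fourth, Solyc03g093110.2, stayed under 7 RPKM. Compared with 7 DAF, the level at 49 DAF was at least 16.2-fold, 26.2-fold and 39.2-fold higher in AC and at least 15.9-fold, 12.8-fold and 6.38-fold higher in HG6-61 (adjusted p = 0.000106, 0.000606 and 0.000999, edgeR). At 28 DAF the adjusted p was 0.000326, 0.00307 and 0.00924, and the last of these was lost without any 1 of 8 libraries (up to 0.0712) while that of Solyc03g093120.2 was lost without AC at 7 DAF, HG6-61 at 7 DAF or HG6-61 at 28 DAF (up to 0.0272). Without AC at 7 DAF the call of Solyc03g093130.2 at 49 against 7 DAF was lost as well (adjusted p = 0.012, edgeR).

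XTH16 Solyc07g055990.2 on chromosome 7 was highest at 49 DAF, after an earlier step at 21 DAF. It read 0.93, 1.02, 8.82, 8.83, 12.4, 6.74 and 99.3 RPKM in AC and 1.72, 0.96, 4.80, 9.24, 2.18, 2.39 and 60.8 RPKM in HG6-61. Its rise of 3.32 ± 0.54 on the log2 scale between 28 and 49 DAF (adjusted p = 0.00393, edgeR) was lost without any 1 of the libraries of 28 and 49 DAF (0.0132 to 0.0367), whereas the rise of 5.89 ± 0.65 from 7 DAF was not (adjusted p = 7.89e-05, edgeR). The next gene on the chromosome, XTR7 Solyc07g056000.2, was higher at 21 DAF too, with 148 and 76.5 RPKM against 2.4 and 1.94 RPKM at 14 DAF, and reached 241 and 51.5 RPKM at 49 DAF.

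The early XTH genes fell far. XTH9 Solyc07g052980.2 on chromosome 7 read 387, 29.7, 21.1, 2.02, 0.98, 0 and 0 RPKM in AC and 422, 58.0, 32.4, 10.6, 9.61, 0.79 and 0 RPKM in HG6-61. With no read left at 49 DAF it was at least 404-fold lower than at 7 DAF in AC and at least 347-fold lower in HG6-61 (adjusted p = 3.75e-05, edgeR). XTH8 Solyc03g031800.2 on chromosome 3 read 101, 127, 44.5, 15.5, 7.54, 3.21 and 0 RPKM in AC and 95.01, 146, 98.5, 66.4, 19.0, 1.22 and 1.24 RPKM in HG6-61. This gene was highest at 14 DAF in both cultivars and fell by 5.74 ± 0.88 on the log2 scale between 28 and 49 DAF (adjusted p = 0.00321, edgeR), a call that was lost without AC at 49 DAF, HG6-61 at 28 DAF or HG6-61 at 49 DAF (0.027, 0.0156 and 0.0126). XTH5 Solyc01g099630.2 went from 268 to 1.07 RPKM in AC and from 264 to 4.78 RPKM in HG6-61 between 7 and 49 DAF (log2 fold change -6.72 ± 0.97, adjusted p = 0.000343, edgeR). Later risers included XTR7 Solyc12g017240.1, which stood at 2.30 and 1.91 RPKM at 7 DAF and at 118 and 45.4 RPKM at 49 DAF (log2 fold change 5.61 ± 0.54, adjusted p = 4.45e-05, edgeR). XTH33 Solyc05g005680.2 rose between 28 and 49 DAF, from 0 to 15.1 RPKM in AC and from 0.18 to 7.13 RPKM in HG6-61 (adjusted p = 0.00631, edgeR), a call lost without any 1 of 6 libraries (0.0101 to 0.0473). Another XTR7 gene, Solyc12g011030.1, was high at both ends, with 74.2 and 56.6 RPKM at 7 DAF, 13.7 and 4.17 RPKM at 28 DAF and 59.2 and 94.6 RPKM at 49 DAF, and passed the any-age test alone (adjusted p = 0.00469, edgeR), which was lost without any 1 of 8 libraries (up to 0.0132). Of the 27 XTH members 11 were called higher and 5 lower at 49 against 7 DAF, 6 and 2 at 28 against 7 DAF, and 2 and 1 at 49 against 28 DAF. Over the 26 tested the median log2 fold change from 7 DAF was 1.05 at 28 DAF and 1.27 at 49 DAF, while over all 27 with counts of 0 set to 3 reads it was -0.45 and 0.23, so that at 28 DAF the sign depends on how such genes are treated.

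**Figure D4:**
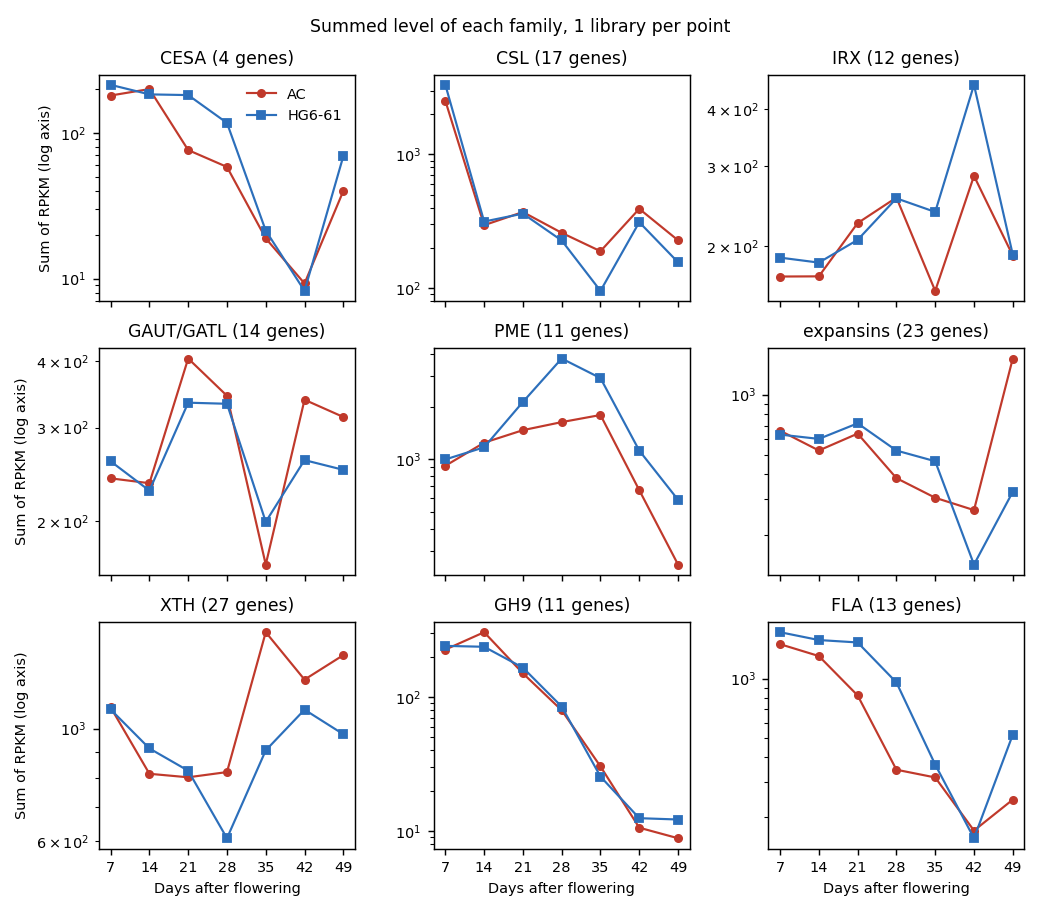
Summed RPKM (log axis) of each of the 9 families by age in DAF for AC and HG6-61. GH9 drops from 226 and 241 RPKM at 7 DAF to 8.81 and 12.2 RPKM at 49 DAF, while GAUT and GATL stay between 166 and 404 RPKM.

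Of the 11 GH9 glucanases kept by the rule, 9 were highest at 7 or 14 DAF in both cultivars and 1 between 35 and 49 DAF. These endo-1,4-beta-glucanases include membrane-bound enzymes of cellulose synthesis and secreted ones, and those of class C, such as GH9C2, carry a module that binds cellulose. GH9C2 Solyc08g082250.2 on chromosome 8 read 44.8, 153, 61.2, 41.2, 19.4, 1.57 and 0.42 RPKM in AC. HG6-61 had 59.2, 117, 64.7, 17.3, 9.07, 1.75 and 1.42 RPKM. The gene was highest at 14 DAF in both cultivars and lowest at 49 DAF. It fell by 5.76 ± 0.63 on the log2 scale between 7 and 49 DAF (adjusted p = 7.06e-05, edgeR) and by 4.89 ± 0.62 between 28 and 49 DAF (adjusted p = 0.00157, edgeR), the latter lost without AC at 49 DAF (0.0212).

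GH9B8 Solyc07g049300.2 on chromosome 7 read 36.8, 42.8, 15.2, 5.70, 0, 0 and 0 RPKM in AC and 36.8, 28.0, 18.3, 13.8, 0.32, 0.23 and 0.24 RPKM in HG6-61. No library from 35 DAF on reached 1 RPKM. It fell by 6.0 ± 0.91 on the log2 scale between 28 and 49 DAF (adjusted p = 0.00306, edgeR), which was lost without AC at 49 DAF, HG6-61 at 28 DAF or HG6-61 at 49 DAF (0.0295, 0.0156 and 0.0125), and the fall between 7 and 49 DAF was called too (log2 fold change -7.95 ± 0.86, adjusted p = 6.88e-05, edgeR). GH9B5 Solyc04g081300.2 followed the same course, with 22.4, 59.4, 42.6, 11.7, 3.68, 0.46 and 0 RPKM in AC and 40.7, 68.7, 63.8, 38.9, 5.39, 1.25 and 0.85 RPKM in HG6-61, and fell by 5.67 ± 0.66 between 28 and 49 DAF (adjusted p = 0.00119, edgeR), though not without AC at 49 DAF (0.0113). GH9B13 Solyc09g075360.2 had dropped by 14 DAF already, from 45.7 to 5.19 RPKM in AC and from 20.7 to 2.50 RPKM in HG6-61. The other gene with the symbol of the first, GH9B8 Solyc07g064870.2, was the 1 GH9 member called higher. It stood at 0.58 and 1.07 RPKM at 7 DAF, at 8.88 and 9.71 RPKM at 28 DAF and at 6.25 and 5.26 RPKM at 49 DAF (log2 fold change 2.84 ± 0.59 at 49 against 7 DAF, adjusted p = 0.00291, edgeR). That call was lost without AC at 7 DAF, AC at 49 DAF or HG6-61 at 7 DAF (0.0385, 0.0104 and 0.0112). Of 11 GH9 members 1 was called higher and 7 lower at 49 against 7 DAF, 1 and 3 at 28 against 7 DAF, and none higher and 3 lower at 49 against 28 DAF. The median log2 fold change at 49 against 7 DAF was -5.92 over the 10 tested and -4.53 over all 11 with counts of 0 set to 3 reads, where the medians of all genes were -0.18 and -0.42.

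Fasciclin-like arabinogalactan proteins summed to 1494 RPKM at 7 DAF and 245 RPKM at 49 DAF in AC and to 1717 and 521 RPKM in HG6-61, and at 49 DAF FLA17 led them. FLA proteins carry fasciclin domains, which serve adhesion in other organisms, and several are anchored to the plasma membrane. FLA17 Solyc10g081720.1 on chromosome 10 read 273, 268, 241, 162, 242, 137 and 173 RPKM in AC and 299, 319, 362, 339, 131, 106 and 310.3 RPKM in HG6-61. The highest level was 3.41 times the lowest, and no comparison of ages called the gene (adjusted p = 0.46 for any age, edgeR). FLA1 Solyc07g065540.1 on chromosome 7 went the other way, at 112, 73.2, 46.6, 9.01, 2.26, 0 and 0 RPKM in AC and 64.7, 56.3, 39.4, 18.4, 7.77, 0 and 0 RPKM in HG6-61. Its level dropped from each age to the next up to 42 DAF in both cultivars. At 49 DAF it was at least 128-fold lower than at 7 DAF in AC and at least 58.2-fold lower in HG6-61 (adjusted p = 0.000107, edgeR), and it was called lower than at 28 DAF too (adjusted p = 0.00474, edgeR). The fall to 28 DAF (by 2.69 ± 0.53 on the log2 scale, adjusted p = 0.00587, edgeR) was lost without any 1 of the libraries of 7, 21 or 28 DAF (0.0112 to 0.062), and that from 28 DAF without AC at 49 DAF, HG6-61 at 28 DAF or HG6-61 at 49 DAF (0.0343, 0.018 and 0.0186).

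Both other FLA1 genes fell likewise between 7 and 49 DAF. FLA1 Solyc12g015690.1 went from 232 to 0 RPKM in AC and from 199.9 to 2.15 RPKM in HG6-61. FLA2 Solyc07g045440.1, among the highest members at 7 DAF with 328 and 479 RPKM, fell to 8.83 and 51.1 RPKM (log2 fold change -3.94 ± 0.72, adjusted p = 0.00133, edgeR), a call lost without AC at 7 or 49 DAF (0.0102 and 0.0194). FLA11, which in Arabidopsis belongs to secondary walls of the stem, was represented by Solyc11g069250.1 at 12.4 and 7.07 RPKM at 7 DAF and at 0 in every library from 35 DAF on. The sum of the xylem markers, most of it from XCP1 Solyc04g082710.2, was highest at 7 DAF as well (47.0 and 35.7 RPKM). The part of xylem in the early levels of FLA, IRX and GH9 genes was not tested. None of the 13 FLA members was called higher in any comparison of ages, while 2 were called lower at 28 against 7 DAF, 6 at 49 against 7 DAF and 2 at 49 against 28 DAF.

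In 10 of 132 members (7.58%, all genes 31.8%) the highest of the 14 libraries was under 5 times the lowest, among them PME31 (2.57 times), IRX14-L Solyc11g011850.1 (2.76), XTR2 Solyc01g005120.2 (2.91), CSLC6 (2.97) and GAUT6 Solyc07g005360.2 (3.63). In 89 members (67.4%, all genes 32.7%) the highest RPKM was at least 100 times the lowest or the lowest was at 0, and 74 members (56.1%, all genes 29.9%) were at 0 RPKM in some library.

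Steps between neighbouring ages were counted as changes of at least 2-fold in reads per library total in both cultivars, among members with enough reads for a ratio. From 14 to 21 DAF 22 of 104 members were higher (21.2%), where 5.37% of all genes were. The 22 were 8 XTH, 4 expansins, 3 IRX, 2 CSL, 2 GAUT or GATL, 2 PME and 1 FLA gene, and they include GATL10, PMEPCRA, CSLC4 and XTR7 Solyc07g056000.2. The sum of seed markers was highest at 28 DAF, and from 14 to 21 DAF it went from 102 to 3123 RPKM in AC and from 12.5 to 604 RPKM in HG6-61. At 49 DAF the sum was 227 and 75.1 RPKM, and 10 of the 22 members were at least 2-fold above 14 DAF in both cultivars. At 28 DAF 5 of the 22 were at least 2-fold lower than at 21 DAF in both, namely IRX6 Solyc02g089130.2, EXPB2 Solyc07g049540.1, EXPA23 Solyc03g115310.1, XTH2 Solyc11g017450.1 and FLA2 Solyc12g006110.1. The part of seed RNA in these steps was not tested. Without the 4 libraries of 21 and 28 DAF, an alternative chosen after the data were seen, 49 members were called at 49 against 7 DAF, 13 higher and 36 lower. The fold changes of that comparison rest on the libraries of 7 and 49 DAF, so that this count cannot speak to seed RNA in the steps above.

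The later steps were mostly downward until 42 DAF and then upward. From 21 to 28 DAF 22 of 103 members were lower (21.4%, all genes 4.54%), from 28 to 35 DAF 22 of 85 (25.9%, all genes 15.7%) and from 35 to 42 DAF 15 of 65 (23.1%, all genes 9.04%). From 42 to 49 DAF 15 of 61 members were higher (24.6%, all genes 8.21%). Among the latter were both main CESA2 genes, PME3, EXPR, EXPL1, XTH33 and FLA17 Solyc01g006820.2, and 4 of the 15 were at 49 DAF still at least 2-fold below 7 DAF in both cultivars. Over the whole span, 53 of 101 members were at least 2-fold lower at 49 than at 7 DAF in both cultivars (52.5%, all genes 29.4%) and 21 were higher (20.8%, all genes 14.3%).

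A difference between the cultivars over the 7 ages was not called for any member. This test takes the 7 ages as pairs of libraries and gives a mean difference over them. The ages are not replicates of a condition, and the cultivars ripen at different ages, so that its p-values do not measure a spread between replicates. edgeR called 0 of 120 members at adjusted p under 0.01 with a log2 fold change beyond 2, where it called 0.238% of all genes, 0.0774% higher and 0.16% lower in HG6-61. At an unadjusted p under 0.05 (edgeR), 39 of 120 members differed, 20 higher and 19 lower in HG6-61, compared with 2843 of 18082 genes (15.7%). At this looser limit members thus differed more often than all genes. DESeq2 called 3 members, all higher in HG6-61: IRX6 Solyc03g114890.2, IRX14-L Solyc01g020130.2 and XTH32 Solyc09g008320.2. At an edgeR adjusted p under 0.05 with no limit on the fold 5 members passed, and each went the same way at 7 of 7 ages. XTH27 Solyc04g008210.1 was lower in HG6-61 by 1.36 ± 0.23 on the log2 scale (log2 fold change -1.36, adjusted p = 0.0199, edgeR). GAUT11 Solyc03g114810.2 was higher by 0.80 ± 0.14 (adjusted p = 0.0257, edgeR), PME44 Solyc07g017600.2 by 1.26 ± 0.24 (0.0324) and XTH32 by 1.94 ± 0.38 (0.0354).

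XTH27 shows the size of such a difference, at 24.1, 17.7, 46.0, 52.4, 62.4, 57.7 and 83.4 RPKM in AC and at 7.34, 11.8, 19.4, 39.4, 14.7, 23.8 and 21.5 RPKM in HG6-61. GAUT11, a pectin synthesis gene, stayed between 10.1 and 16.1 RPKM in AC and between 14.9 and 37.1 RPKM in HG6-61, so that the ranges overlap only slightly. IRX14-L Solyc01g020130.2 had reads in 2 of the 7 AC libraries, at no more than 0.61 RPKM, and read 0.93 to 7.61 RPKM in HG6-61, with 16 reads in its highest library (log2 fold change 4.17 ± 0.76, adjusted p = 0.0272, edgeR). The 65 members that were highest at 7 or 14 DAF in both cultivars were compared at 21 DAF. Of these, 44 stood higher in HG6-61, 17 stood lower and 4 were equal. The count was not made for all early genes, so that it shows no trait of these families. At 21 DAF the library of AC held 2052528 counted reads and that of HG6-61 6274456, and the seed genes summed to 3123 and 604 RPKM. XTH5 was at 54.9 RPKM in AC and 229.6 RPKM in HG6-61, PME3 at 282 and 837 RPKM, EXPA10 at 140.3 and 317 RPKM and CESA2 Solyc04g071650.2 at 44.3 and 129 RPKM, while GH9C2 Solyc08g082250.2 was at 61.2 and 64.7 RPKM and FLA1 Solyc07g065540.1, the other way round, at 46.6 and 39.4 RPKM. With 1 library per cultivar and age that difference has no replicate check, and it was not tested.

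A list of 124 genes, of which 109 could be tested, served as a list of wall genes outside the symbols of these families. It holds QUA1 and MUR10, which name a GAUT and a CESA gene in Arabidopsis, so that it is not wholly outside the families. Its largest group was the TBL genes. It also held genes of nucleotide sugar synthesis, wall side chains, COBRA-like proteins, beta-galactosidases and other glycosidases, arabinogalactan proteins, laccases and sucrose synthases. It held 6 called higher (5.51%) and 9 lower (8.26%) at 28 against 7 DAF, 8 (7.34%) and 19 (17.4%) at 49 against 7 DAF, and 3 (2.75%) and 7 (6.42%) at 49 against 28 DAF. The shares of all genes were 5.08% and 4.76%, 8.83% and 13.8%, and 0.874% and 3.06%, so that at 49 against 7 DAF the list lay near all genes in both directions. Its median log2 fold change at 49 against 7 DAF was -1.08, that of the 120 members tested was -1.39 and that of all genes tested was -0.18. With counts of 0 set to 3 reads the median of the members was -1.21 and that of all genes -0.42.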

How the data were processed

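Fruit RNA, of pericarp by the study's methods, was analysed in 14 libraries (AC and HG6-61, 7 ages). The authors aligned the reads to the tomato genome with TopHat, allowing 2 mismatches, removed reads that mapped to several places, and deposited a count of reads per gene and RPKM values for each library. No column was left unmapped to a library.

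Counts were tested with edgeR 4.0.16 in R 4.3.3: filterByExpr left 18082 genes, libraries were scaled by TMM, and a quasi-likelihood model with age and cultivar was fitted to all 14 libraries. The same cultivar recurs at each age, so that cultivar is the pairing of the libraries and enters as the block, and p-values measure the spread between cultivars after that term. A member was called below 0.01 in adjusted p with more than 2 log2 units of change. The SE was taken from the quasi-likelihood F. Levels are RPKM as deposited, since these are per length, and folds with a count of 0 used a floor of 3 reads per library. Intervals and floors cover counting error only. The fit was also run on simulated counts, which held no effect of cultivar and no difference in ripening age between cultivars. That run is thus no check of the calls made here.

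Named genes were the member of highest mean RPKM in each family and, per comparison, the 3 largest rises and falls among the called members of at least 10 reads on average whose direction was the same in both cultivars. Any other gene named was chosen after its values were seen. Members and lists were chosen with earlier results of these data known. Alternatives were DESeq2 1.42.0, no filter on low counts, 30 reads as the minimum, an adjusted p under 0.05, fewer libraries, other sums of RPKM, and no block. Gene coordinates and sequences were not used here.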

Additional observations from a re-analysis of the deposited data

Results flagged for a closer look

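For 3 members the libraries of the 2 cultivars moved in opposite directions between 28 and 49 DAF, as log2 ratios of reads per library total, and the difference was not tested, since each age has 1 library per cultivar. EXPR Solyc08g077330.2, an expansin-like gene, had a log2 ratio of -1.41 in AC and 4.09 in HG6-61. GH9B14 Solyc08g081620.2, a glucanase, had -2.75 in AC, where the library of 49 DAF held no read and the floor of 3 reads was used, and 2.77 in HG6-61. CSLE1 Solyc07g065660.2 had -1.12 in AC and 1.07 in HG6-61. These genes had at most 64 reads in the libraries compared.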

How the results depend on the processing

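Counts of called members kept within 1.5 times of the reported value under most alternatives. For 28 against 7 DAF an adjusted p under 0.05 without a limit on the fold gave 54 calls. For 49 against 28 DAF, DESeq2 gave 29, no filter on low counts 28 and an adjusted p under 0.05 without a limit on the fold 37. For HG6-61 against AC, DESeq2 called 3 members and the adjusted p under 0.05 gave 5. Without 1 library in turn the counts ran from 11 to 36 (28 against 7 DAF), 38 to 63 (49 against 7 DAF), 1 to 22 (49 against 28 DAF), 54 to 78 (any age) and 0 to 0 (cultivars). Without the replicate block of cultivar the counts were 23, 52, 10 and 60 for the same comparisons of age. The summed PME level at 28 against 7 DAF in HG6-61 had a log2 ratio of 1.92 and of -0.60 without PMEPCRA, its highest member. Depth limits the low genes: 75 members had no read in at least 1 library, and the levels there are limits and not absences. Each age has 1 library per cultivar, so that the tests of age take the cultivars as replicates of an age. The test of cultivar takes the ages as pairs of libraries.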
